A study of Mus musculus with 8 samples.

Results

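The genes described here were 36 genes of the kidney tubule, taken from the 22173 gene symbols of the count tables. They comprise 16 genes of proximal tubule transport and metabolism, 2 of the loop of Henle, 5 of the distal tubule, 6 of the collecting duct, 6 kidney transcription factors and the tubular cadherin Cdh16. The list was made from known functions, with earlier results of these data known, and all 36 symbols were found in the tables. The study sequenced 8 libraries from cultured wild-type (WT) mouse cells, with 1 library per condition made from 3 pooled samples. In the 2 TEC libraries, primary tubular epithelial cells (TECs) grown from digested kidneys with EGF shared a trans-well with macrophages. The macrophages in the lower chamber had been given LPS and interferon, named M1, and were then rinsed. In the TEC library they had not received G-1, and in the TEC-G-1 library they had been pretreated with G-1, the agonist of the estrogen receptor GPER1. The other 6 libraries were bone marrow-derived macrophages, either differentiated only (M0), given LPS and interferon (M1) or given IL-4 (M2), each without and with G-1. The counts summed to between 35027179 and 40671596 per library.

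The kidney tubule is a chain of segments with separate tasks. The proximal tubule takes back sodium, glucose, phosphate, amino acids and filtered protein across a brush border, the loop of Henle concentrates the urine, and the distal tubule and collecting duct set the final salt and water balance under aldosterone and vasopressin. Each segment carries its own apical transporters, while Pax2, Pax8 and other transcription factors are shared along the tubule. Cultured tubular cells are known to lose many apical transporters.

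A level is given as CPM, the counts scaled to an equal total in every library, and a comparison of levels between genes as CPM per kilobase of transcript. A gene was taken as present when both TEC libraries held at least 20 counts. It was called above the macrophages when the lower of both TEC libraries was at least 2-fold above the highest of the 6 macrophage libraries. A fold with a macrophage group at 0 was taken against a floor of 3 counts in the library and is a bound. Pooling leaves no spread between samples to be measured. The 95% intervals are therefore exact intervals for counting error only, no p-value is given for a pair of libraries, and a fold compares libraries rather than conditions. TECs and macrophages were sequenced as separate sets, so cell type and sequencing set cannot be told apart. M0, M1 and IL-4 macrophages were 3 separate sets as well, and differences between these states cannot be told apart from the set. The same holds for fewer cells of a type and less RNA per cell.

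The TEC libraries matched their label. In a list of 28 epithelial genes, 27 were present and all 28 lay above the macrophages, with the keratin gene Krt8 at 2592 CPM in TEC and 2941 CPM in TEC-G-1. Of 30 macrophage markers, 29 were present in the TEC libraries at low levels, a median of 1.15% of their CPM in the M1 library for TEC and 0.739% of that in M1 with G-1 for TEC-G-1, with a range over the markers from 0.314 to 154% for TEC. Their summed level was 405.0 CPM in TEC and 232.0 CPM in TEC-G-1, against 40880 and 30990 CPM in the corresponding M1 libraries. Lists of other kidney cells were present too, with 17 of 22 fibroblast genes, led by Fn1, Vim and Sparc, 15 of 16 endothelial genes, led by Ets1, Eng and Emcn, and 6 of 10 podocyte genes, led by Podxl, Synpo and Cdkn1c. Vim, Eng and Cdkn1c each had more counts in a macrophage library than in either TEC library. The part of other cells in the levels below was not tested. In addition, both IL-4 macrophage libraries held low counts of kidney transcripts, which are described further below, and the count of the 36 genes above the macrophages is given with and without them.

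The TECs kept the 6 listed transcription factors and Cdh16, and held the transport genes of the tubule in part. Of the 36 genes, 23 were present in both TEC libraries, a share to be read against 56.2% of all symbols present by the same measure. Present genes numbered 6 of 6 transcription factors, 9 of 16 proximal genes, 0 of 2 loop genes, 3 of 5 distal genes and 4 of 6 collecting duct genes, together with Cdh16. The proximal, distal and collecting duct shares were 56.25%, 60.0% and 66.67%. Presence alone thus hardly set these segment genes apart from all symbols. No intact kidney was sequenced, so a gene called kept is one that was detected, and no loss from the tissue was measured. Against the macrophages, 28 genes had enough counts in any library to be compared, and 20 of them lay above all 6 macrophage libraries, while the background was 24.2% of all genes compared. The count was also 20 without both IL-4 libraries. Anpep was the single gene at least 2-fold below every macrophage library, where the background was 7.07%. The quasi-likelihood test of edgeR set the 2 TEC against the 6 macrophage libraries. It also tested 28 of the genes, with Slc12a1 in place of Calb1. Of these, 20 were higher in TECs at an adjusted p under 0.05, against 25.4% of all genes, and 2, Anpep and Slc13a3, were lower. That fit takes libraries under different treatments as replicates of a cell type, which they are not, so its p holds no spread between samples of a condition.

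**Figure D1:**
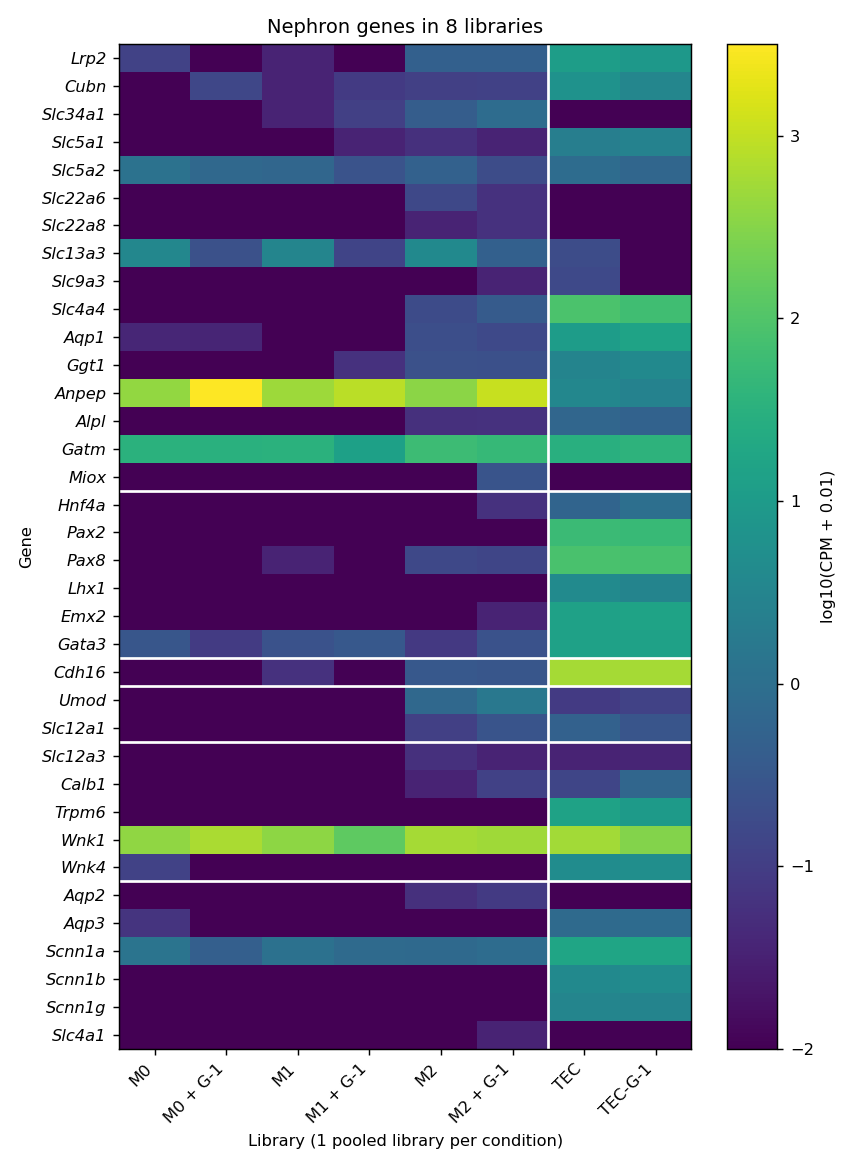
Levels of the 36 genes in the 8 libraries, drawn as colours for log10 of CPM plus 0.01, with white lines between the proximal genes, transcription factors, Cdh16, loop, distal and collecting duct genes and between macrophages and TECs. The 2 TEC columns are bright for Cdh16, Pax8, Pax2 and Slc4a4, Anpep is brightest in macrophages, and the 2 IL-4 columns hold faint signal in rows that are at 0 in the other 4 macrophage columns.

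Cdh16, the kidney-specific cadherin that joins tubular cells along most of the nephron, had the highest level per length of all 36 genes in both TEC libraries, with 198.5 CPM per kilobase in TEC and 203.4 in TEC-G-1. On GRCm38 the gene spans 104601915 to 104624396 of chromosome 8. Its counts were 21934 in TEC and 21237 in TEC-G-1, against 0, 0, 2 and 0 in the M0 and M1 libraries without and with G-1, and 13 and 11 in the IL-4 libraries. The groups did not overlap, and the lower TEC level was 1785-fold (1044 to 3353) above the highest macrophage level.

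All 6 transcription factors were present and above the macrophages. Pax8, a paired-box factor that tubular cells keep through adult life, had 3161 counts in TEC and 2887 in TEC-G-1, and at most 6 in a macrophage library. Pax2, its relative in the developing kidney and collecting duct, had 2179 and 1814 counts and was at 0 in all 6 macrophage libraries, which puts the TECs at least 583-fold higher. Emx2, a homeobox factor needed for the ureteric bud, had 547 and 552 counts. Gata3, which marks the collecting duct and distal tubule, had 553 and 503 counts, and from 3 to 13 counts in macrophages. These 2 factors differed by less than 1.1-fold between both TEC libraries.

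The remaining factors were lower. Lhx1, a LIM homeobox factor of nephron formation, had 166 counts in TEC and 112 in TEC-G-1, with 0 in all macrophage libraries. Hnf4a, the nuclear receptor that drives proximal tubule genes, stood lowest with 23 and 37 counts. Its level was 0.598 CPM in TEC (0.379 to 0.898) and 1.02 CPM in TEC-G-1 (0.717 to 1.40), at most 0.234 CPM per kilobase against 31.1 or more for Pax8. Of a wider list of 31 kidney transcription factors, 25 were present and 24 lay above the macrophages. Among its highest members were Sox4, with 101 CPM per kilobase in TEC, Sox9 and Hoxa10. Sox9, a factor of tubule development and repair, had 3833 and 3143 counts and was at 0 in all 6 macrophage libraries.

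Promoters of the 36 genes were searched on both strands for the HNF4-type site CAAAGTCC, since Hnf4a, the factor of that name among the 36, was detected in the TECs at a low level. RefSeq promoter windows of 300 bases, 250 of them before a start, were found for 31 of the 36 genes, in 39 windows. The site was found in 2 of these windows, 5.13%, against 1.42% of 32851 mouse promoter windows. One window belongs to Ggt1, at 1 of its 4 starts in the table, and the other to Slc34a1. Both are shown because Ggt1 was present in the TECs and Slc34a1 had no counts there. Capitals mark the match. The run of Ggt1 holds the 250 bases before the start of its window. That of Slc34a1 holds 251 bases, the last being the first base transcribed from the start of its window. This start of Slc34a1 lies inside the span of the gene, which begins at 55399622. On GRCm38.p6 the run of Ggt1 is chr10:75573245-75573494 and that of Slc34a1 is chr13:55399398-55399648, both on the plus strand.
Ggt1: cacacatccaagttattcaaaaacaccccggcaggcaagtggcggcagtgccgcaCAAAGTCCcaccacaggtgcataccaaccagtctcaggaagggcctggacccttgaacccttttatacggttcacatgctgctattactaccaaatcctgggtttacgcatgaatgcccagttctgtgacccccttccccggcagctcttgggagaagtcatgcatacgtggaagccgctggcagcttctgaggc
Slc34a1: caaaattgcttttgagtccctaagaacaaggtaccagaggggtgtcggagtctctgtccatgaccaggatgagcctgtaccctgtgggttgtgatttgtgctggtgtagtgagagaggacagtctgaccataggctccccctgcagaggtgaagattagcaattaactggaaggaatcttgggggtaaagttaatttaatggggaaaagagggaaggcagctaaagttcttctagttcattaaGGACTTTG
The match of Ggt1 begins 195 bases before the start of its window. That of Slc34a1 begins 7 bases before the start of its window and ends on the first base transcribed from there. In Slc34a1 the site is the reverse complement. A match describes the letters of the window only.

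Of the proximal genes, those of protein uptake were present. Lrp2, which encodes the endocytic receptor megalin, had 444 counts in TEC and 307 in TEC-G-1, or 11.6 and 8.45 CPM, with at most 4 counts in the M0 and M1 libraries and 19 and 18 in the IL-4 libraries. It lies on chromosome 2 from 69424335 to 69586029. Cubn, whose product cubilin works with megalin, had 244 and 122 counts and from 0 to 5 in macrophages. Both TEC libraries were above all macrophage libraries for both genes, by 18.1-fold (11.4 to 30.5) for Lrp2 and by 24.9-fold (10.4 to 77.9) for Cubn.

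Of 9 proximal transporters, 4 were present, and 3 of these were above the macrophages. Slc4a4, the basolateral sodium bicarbonate cotransporter, had 3342 and 2416 counts, or 86.9 and 66.5 CPM, the highest level per length of the 9 with 24.9 and 19.0 CPM per kilobase. Aqp1, the water channel of the proximal tubule and thin limb, had 415 and 569 counts, against 0 or 1 in the M0 and M1 libraries and 8 and 6 in the IL-4 libraries. Slc5a1, the high-affinity glucose transporter of the late proximal tubule, had 88 and 99 counts and no more than 2 in macrophages. The fourth, Slc5a2, the main glucose carrier of the early proximal tubule, had 33 and 23 counts in TECs and 41, 27, 25, 10, 20 and 7 in the macrophage libraries in the order M0, M1 and M2, each without and then with G-1. These ranges overlapped, and its presence did not set the TECs apart.

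The other 5 transporters were nearly or wholly without counts. Slc34a1, the brush-border phosphate cotransporter on chromosome 13 from 55399622 to 55414695, had 0 counts in both TEC libraries, which allows at most 0.0780 CPM in TEC and 0.0826 CPM in TEC-G-1. The organic anion transporters Slc22a6 and Slc22a8 were also at 0 in both. Slc9a3, the apical sodium-proton exchanger, had 6 and 0 counts. Slc13a3, the basolateral dicarboxylate transporter, had 7 and 0, fewer than in 5 of the 6 macrophage libraries, where it reached 165.

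Among the 5 proximal enzymes, Ggt1 and Alpl lay above the macrophages, and Gatm and Anpep did not. Ggt1, the brush-border γ-glutamyltransferase, had 114 and 149 counts and at most 9 in macrophages. Alpl, the alkaline phosphatase of the brush border, had 25 and 19 counts and was thus 1 count short of being called present. Gatm, the first enzyme of creatine synthesis, had 29.4 and 36.01 CPM in TECs within the macrophage range of 13.7 to 58.6 CPM. Miox, the inositol oxygenase confined to the proximal tubule, was at 0 in both TEC libraries. Anpep, the brush-border aminopeptidase N, which myeloid cells also carry as CD13, had 132 and 101 counts in TECs against 14449 to 117845 in macrophages. The lowest macrophage level was 103.5-fold above the higher TEC level. Anpep in TEC stood at 0.688% of its M1 level, and in TEC-G-1 at 0.318% of its level in M1 with G-1, beside the medians of 1.15 and 0.739% over the macrophage markers. The part of macrophage RNA in these Anpep counts was not tested.

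Neither loop gene was present. Umod, which encodes uromodulin, the main protein of the thick ascending limb, had 3 and 4 counts in TECs. Slc12a1, the furosemide-sensitive cotransporter NKCC2, had 19 and 10 counts, the former just under the minimum. The IL-4 libraries held 29 and 61 counts of Umod and 4 and 10 of Slc12a1, so neither gene separated TECs from all macrophages.

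The distal genes divided between kinases and channels that were present and markers that were not. Wnk1, a kinase that sets the activity of the distal sodium chloride cotransporter, had 21133 and 10911 counts, or 549.7 and 300.4 CPM, within the macrophage range of 134.2 to 623.9 CPM. Counts per gene do not separate its kidney-specific short isoform from the isoform of most cells. Wnk4, its partner in the distal tubule, had 181 and 188 counts and 4 in M0 as its highest macrophage count. Trpm6, the apical magnesium channel, had 577 and 359 counts and 0 in all macrophage libraries, which is at least 115-fold. Slc12a3, the thiazide-sensitive cotransporter of the distal convoluted tubule, had 1 count in each TEC library. Calb1, which encodes the calcium-binding protein calbindin, had 5 and 24 counts.

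The collecting duct genes comprised the full epithelial sodium channel, without the vasopressin-regulated water channel. Scnn1a, the α subunit, had 664 and 584 counts, 12.2-fold (9.06 to 16.9) above the highest of the macrophage libraries, whose counts ran from 17 to 46. The β and γ subunits Scnn1b and Scnn1g had 159 and 169 and 121 and 110 counts, and both were at 0 in all 6 macrophage libraries. Per length the subunits had 4.94, 1.67 and 1.05 CPM per kilobase in TEC and 4.60, 1.88 and 1.01 in TEC-G-1, so that the α subunit was the highest in both. Aqp3, the basolateral water channel, had 31 and 30 counts. Aqp2, the apical channel that vasopressin inserts, was at 0 in both TEC libraries, as was Slc4a1, the chloride-bicarbonate exchanger of the acid-secreting intercalated cells and of red cells.

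Wider lists of the same segments were chosen from known functions, with earlier results of these data known. Their counts are read against the 56.2% of all symbols present and the 24.2% of compared genes above the macrophages. The shares present were 48.0% of the proximal, 55% of the loop, 75.0% of the distal and 40.6% of the collecting duct list. The shares above the macrophages, of the genes compared, were 38.7% of 31, 85.7% of 14, 29.4% of 17 and 93.8% of 16 in the same order. Of 50 further proximal genes, 24 were present and 12 lay above the macrophages, led per length by Gpx3, the plasma glutathione peroxidase, with 231 CPM per kilobase in TEC, and Abcc4, Slc9a3r1 and Ass1, of which the last 2 had more counts in M1 macrophages with G-1 than in either TEC library. Of 20 loop genes, 11 were present and 12 lay above the macrophages, led by the claudins Cldn4 and Cldn3 and by Irx2 and Irx3, homeobox factors of the intermediate nephron. Of 20 distal genes, 15 were present and 5 lay above, led by Hsd11b2, which protects the mineralocorticoid receptor from glucocorticoids, with 2868 and 2710 counts, and by Cul3, Oxsr1 and Stk39, the first 2 of which were not above the macrophages. Of 32 collecting duct genes, 13 were present and 15 above, led by Krt8, Krt18, Krt7 and Krt19, keratins that many simple epithelia share.

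Between both TEC libraries the nephron genes differed little, and so did the measured genes as a whole. Folds were computed after TMM scaling for the 25 genes that reached 20 counts in either library, and 1 passed 2-fold upward and 0 downward, against 1.39% and 2.82% of all genes measured. Their median log2 fold of TEC-G-1 over TEC was -0.07, beside 0.01 over all genes. Calb1 was the gene past 2-fold, with 0.130 CPM (0.0422 to 0.304) in TEC and 0.661 CPM (0.423 to 0.983) in TEC-G-1, a log2 fold of 2.33 or 5.04-fold higher (1.89 to 16.9). Its interval reached below 2-fold, and its higher count was 24.

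Folds between these libraries moved with transcript length. Over all genes in 5 equal groups by length, the median log2 fold went from 0.31 at a median of 1234 bases to -0.34 at 6490 bases. The longest nephron transcripts were among the lowest folds, and the following values are given with that trend as it stood and after the running median of genes of like length was subtracted. Wnk1, with a transcript of 11330 bases, had a log2 fold of -0.88, or 1.85-fold lower (1.80 to 1.89), and -0.31 after removal. Cubn, with 11262 bases, had -0.93, or 1.91-fold lower (1.53 to 2.39), and -0.37 after removal. Lrp2, with 15460 bases, had -0.46, or 1.38-fold lower (1.19 to 1.60), and its sign turned to 0.17. Trpm6 had -0.61, or 1.53-fold lower (1.34 to 1.75), and -0.28 after removal. The part of RNA quality in this trend was not tested.

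**Figure D2:**
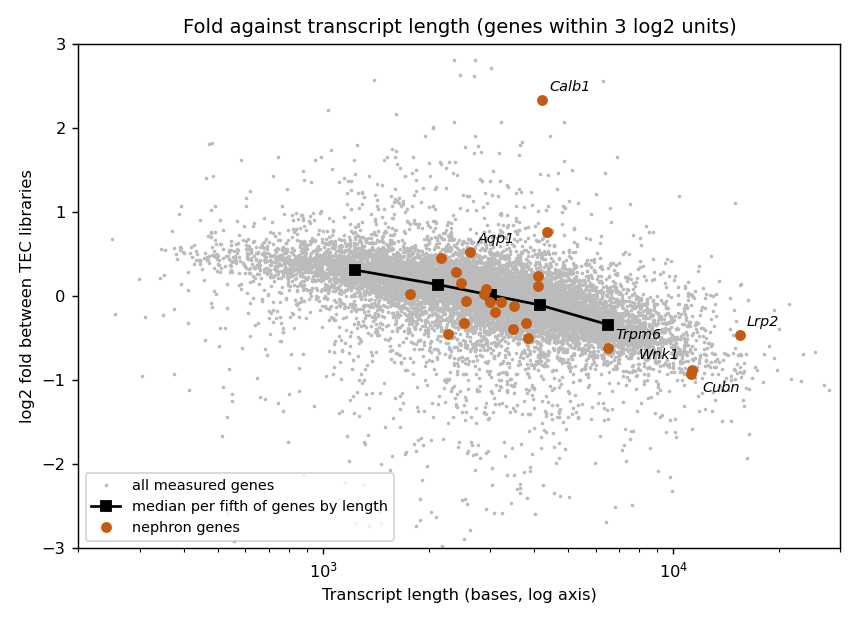
Log2 fold of TEC-G-1 over TEC against transcript length on a log axis, with grey points for all measured genes, black squares for the medians of 5 equal groups by length and orange points for the nephron genes. The medians go down from 0.31 to -0.34, Wnk1, Cubn and Lrp2 lie at the long end, and Calb1 lies above all other nephron genes.

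Folds of shorter transcripts moved too. Aqp3 went from 0.02 to -0.17, Pax8 from -0.06 to -0.14, outside its counting interval, and Ggt1 from 0.46 to 0.32. Slc4a4 was 1.32-fold lower in TEC-G-1 (1.25 to 1.39), with log2 folds of -0.40 as counted and -0.35 after removal. Aqp1 was 1.44-fold higher (1.27 to 1.64), with 0.53 and 0.47, and Ggt1 was 1.37-fold higher (1.07 to 1.77). Lhx1 was 1.41-fold lower (1.10 to 1.81). Gatm was 1.22-fold higher (1.12 to 1.32) and Pax2 was 1.14-fold lower (1.07 to 1.22). The intervals of these genes leave out a fold of 1 by counting error alone, and the spread between samples is not known. Hnf4a had a log2 fold of 0.76, and its interval ran from 0.98-fold to 2.98-fold. For Cdh16 the log2 fold was 0.02, with an interval from 0.998-fold to 1.04-fold, and -0.01 after removal. The sodium channel subunits had log2 folds of -0.11 for Scnn1a, 0.16 for Scnn1b and -0.07 for Scnn1g, with intervals that all held a fold of 1.

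**Figure D3:**
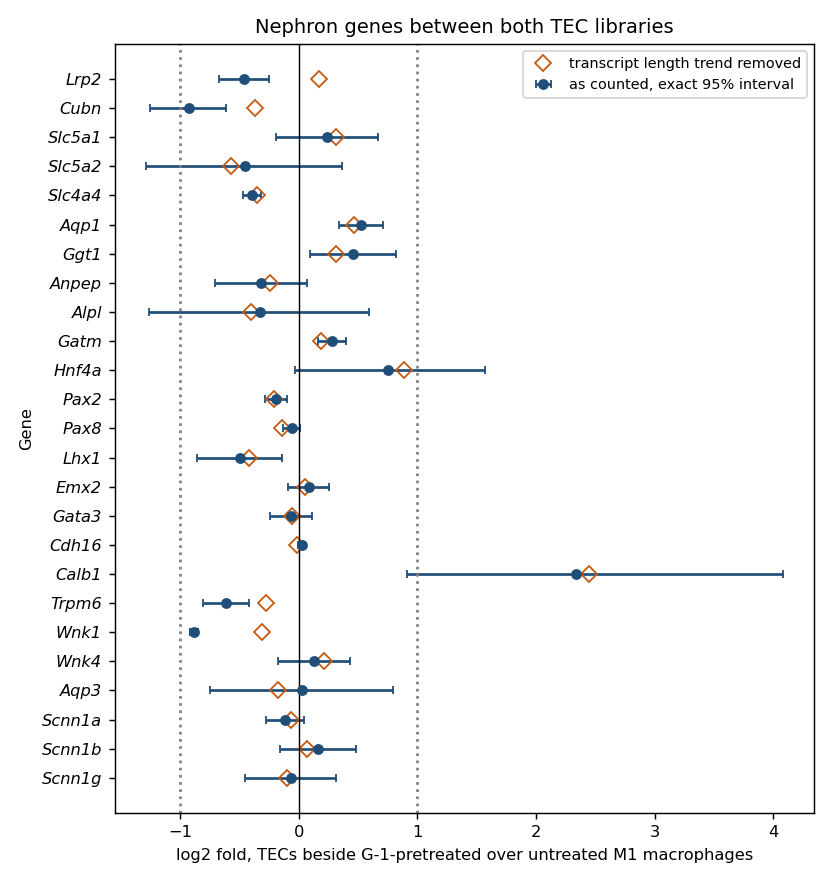
Log2 fold of TEC-G-1 over TEC for the 25 nephron genes with enough counts, with blue points and bars for the value as counted and its exact 95% interval, orange diamonds after the length trend was removed, and dotted lines at 2-fold. Calb1 at 2.33 is the single point beyond a dotted line, and the diamonds of Lrp2, Cubn, Trpm6 and Wnk1 lie nearer to or beyond 0.

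In the wider lists 24 proximal, 12 loop, 16 distal, 16 collecting duct and 26 transcription factor genes were measured in this pair, some in more than 1 list. Of these, 6 genes passed 2-fold, 3 higher and 3 lower, where 1.39% and 2.82% of all genes did. The 6 are therefore not read as particular to nephron genes. Higher in TEC-G-1 were Cldn16, the tight-junction claudin of magnesium reabsorption, with 13 and 29 counts, Ppp1r1a, a phosphatase inhibitor, with 43 and 93, and Atp6v1c2, a proton pump subunit of intercalated cells, with 14 and 45. Lower were Slc8a1, the sodium-calcium exchanger of the distal tubule, with 220 and 86, Atp2b4, a calcium pump, with 1540 and 645, and Ppara, the receptor that drives fatty acid oxidation, with 23 and 2. The fold intervals of Cldn16 (1.18 to 4.91), Ppp1r1a (1.57 to 3.34), Atp6v1c2 (1.82 to 6.66) and Slc8a1 (1.89 to 3.16) reached below 2-fold. Those of Atp2b4 (2.07 to 2.50) and Ppara (2.71 to 95.8) did not. After removal of the length trend, Cldn16 (log2 fold 0.92), Ppp1r1a (0.90) and Atp2b4 (-0.61) were within 2-fold, while Car15, a carbonic anhydrase with 20 and 10 counts, passed it (-1.22). Slc8a1 had 571 to 4950 counts in the macrophage libraries, and its TEC levels were 14.97% and 16.7% of those in the corresponding M1 libraries. The part of macrophage RNA in its difference was not tested. In the same pair the macrophage markers had a median log2 fold of -0.58, and 10 of the 30 were past 2-fold lower, among them Marco with 633 and 29 counts and Adgre1 with 757 and 120. The part of that difference in the nephron genes was not tested.

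Some of the 36 genes are genes of macrophages too, and in these G-1 was given to the cells themselves. In the M0 pair 6 genes were measured, of which 1 was past 2-fold higher with G-1 and 2 lower, against 12.2% and 12.6% of all genes. In the M1 pair 1 of 6 was higher and 4 were lower, against 9.44% and 12.1%. In the M2 pair 3 of 8 were higher and 2 were lower, against 5.95% and 7.78%. Of these 3, Umod and Slc34a1 are kidney transcripts with at most 61 counts in the IL-4 libraries, and the third was Anpep.

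Anpep was higher and Slc13a3 lower with G-1 in all 3 macrophage states. Slc13a3 had 121, 122 and 165 counts in the M0, M1 and M2 libraries without G-1 and 8, 5 and 18 with it. The ranges without and with G-1 did not overlap, but the share of all genes without overlap was not computed. The 3 states are not replicates, so the lack of overlap is not read as support. Slc13a3 was 14.3-fold lower (7.05 to 34.0) in M0, 21.8-fold lower (9.08 to 68.3) in M1 and 8.79-fold lower (5.39 to 15.2) in M2. Anpep had 416.5, 499.1 and 355.3 CPM without G-1 and 3185, 873.5 and 1091 CPM with it, again without overlap and with the same limit. It was 8.52-fold higher (8.37 to 8.67) in M0, 2.01-fold (1.98 to 2.05) in M1 and 3.05-fold (2.99 to 3.11) in M2. These folds follow TMM scaling within the pair, and by total counts Anpep in M1 was 1.75-fold higher, under the threshold.

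A common effect of G-1 in the 3 states was also tested, with state as a term of the model. With edgeR's quasi-likelihood test, 0 of the 11 genes tested passed an adjusted p of 0.05, against 0.0% of all 11921 genes, although 1634 genes had an unadjusted p under 0.05. The adjusted p of edgeR was 0.117 for Slc13a3, with an unadjusted p of 0.000447, and 0.222 for Anpep, with 0.00882. With DESeq2, 2 of 12 passed, the same Slc13a3 at an adjusted p of 4.79e-07 and Anpep at 0.00101, against 6.26% of all genes. The call therefore rests on the tool.

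The folds of other genes varied by state. Wnk1 was 1.80-fold higher with G-1 in M0 (1.76 to 1.84), 2.39-fold lower in M1 (2.32 to 2.47) and 1.10-fold lower in M2 (1.08 to 1.12). After removal of the length trend its log2 fold in M1 was -0.32, where it had been -1.26. Gatm was 2.06-fold lower in M1 (1.86 to 2.28), with log2 folds of 0.08 in M0, or -0.08 by total counts, and -0.26 in M2. Slc5a2 was lower in all 3, past 2-fold in M1 and M2, from counts between 7 and 41. Its interval in M0, from 0.86-fold to 2.43-fold lower, held a fold of 1. Scnn1a was 2.57-fold lower in M0 (1.44 to 4.77), with log2 folds of -0.34 in M1 and 0.20 in M2.

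**Figure D4:**
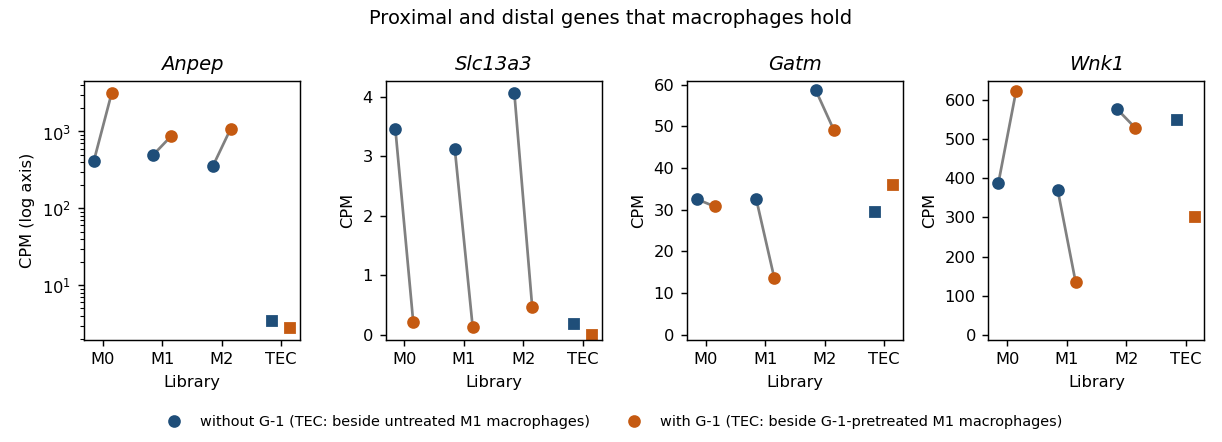
CPM of Anpep (log axis), Slc13a3, Gatm and Wnk1 in macrophages (circles, joined within a state) and TECs (squares), blue without and orange with G-1 given to the macrophages. Anpep is higher and Slc13a3 lower with G-1 in all 3 states, and Wnk1 is higher in M0 and lower in M1.

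The macrophage libraries differed in how many of the 36 genes they held at all. Genes with any count numbered 11, 9, 12 and 11 in the M0 and M1 libraries without and with G-1, but 24 and 29 in the M2 libraries, and 30 and 28 in the TEC libraries. Over all 22173 symbols, 57.6 to 59.3% had any count in the M0 and M1 libraries, 62.2% in each M2 library and 69.5 and 69.6% in the TEC libraries. Of 19 genes at 0 in all 4 M0 and M1 libraries, 9 had counts in both IL-4 libraries, and 4 of these were above both TEC levels there. The share of all symbols by this measure was not computed, here or for the wider lists below. These numbers are therefore not read as particular to kidney genes. The counts were low. Umod had 29 and 61 counts, or 0.713 and 1.58 CPM, in M2 without and with G-1, and 0 in the 4 other macrophage libraries. Slc34a1 had 17 and 34, against 0, 0, 1 and 4, and Slc22a6 had 6 and 2. Miox had 10 in M2 with G-1 alone.

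Counts in the IL-4 libraries were also seen for genes of the wider segment lists. The source of these counts was not tested. Kap, the androgen-regulated kidney protein of the proximal tubule, had 208 and 153 counts in the IL-4 libraries, Acsm2 had 30 and 31, and Cyp2e1 had 14 and 18. All 3 were at 0 in the TEC and in the other macrophage libraries. Slc27a2, a fatty acid transporter and acyl-CoA synthetase, had 25 and 28 counts in the IL-4 libraries, 11 and 5 in the TEC libraries and 0 in the other macrophages. Over the 36 genes and the wider segment lists, 89 distinct genes were at 0 in the M0 and M1 libraries, 31 of them had counts in both IL-4 libraries, and 16 were higher there than in both TEC libraries. Pax2, Lhx1, Trpm6, Scnn1b and Scnn1g, present in the TECs, were at 0 in both IL-4 libraries.

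**Figure D5:**
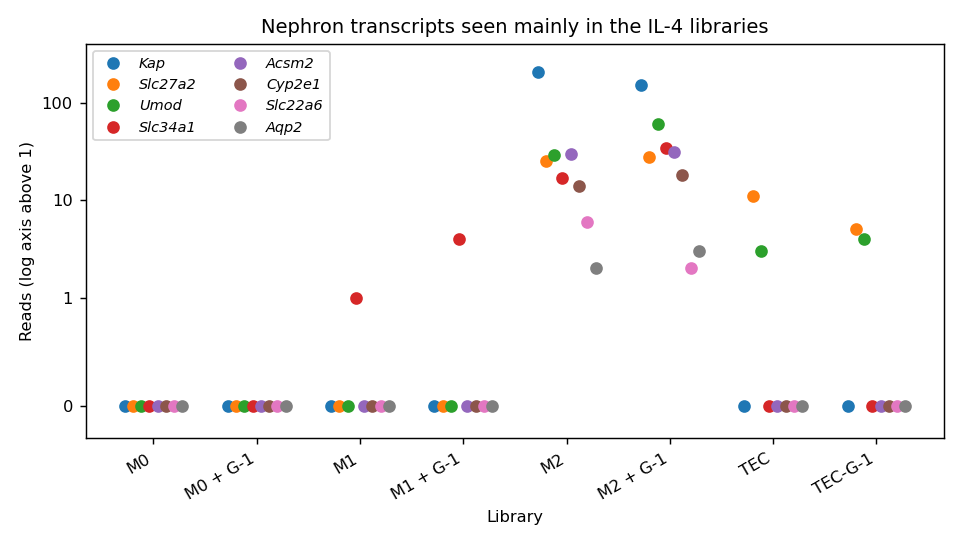
Counts of 8 nephron genes in the 8 libraries, on an axis that is logarithmic above 1 count. The points stand above 0 in both M2 libraries, reaching 208 for Kap and 61 for Umod, and lie at 0 elsewhere except for Slc34a1 in the M1 libraries and Umod and Slc27a2 in the TEC libraries.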

How the data were processed

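The authors deposited 1 table per library, with unnormalized counts for each gene symbol. Genome build mm10 and DESeq2 stand in the submitters' processing notes, while aligner and counter were not given in the sources used here. Libraries were made with the VAHTS Universal V6 kit and read with paired ends. Members and lists were chosen with earlier results of these data known, and every member is named. CPM used total counts. Pair folds used TMM within the pair (edgeR 4.0.16, R 4.3.3), a minimum of 20 counts in the library with more and a call at 2-fold, with exact binomial 95% intervals (Python 3.11.15, scipy 1.17.1). edgeR and DESeq2 1.42.0 compared cell types, with G-1 as covariate, and G-1 across macrophage states, with Benjamini-Hochberg adjustment, and were tested on simulated data. Lengths came from GENCODE M21, positions and promoters from RefSeq on GRCm38.p6. Wider lists gave segment, epithelial, macrophage, fibroblast, endothelial and podocyte genes. From the segment lists, the 4 with most CPM per kilobase and those past 2-fold were named, and from the others up to 3 by CPM. Kap, Acsm2, Slc27a2, Cyp2e1, Marco and Adgre1 were named after their values were seen. Some genes the rule offers are not reported here. Alternatives changed scaling, count minimum, fold, length trend and tool.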

Additional observations from a re-analysis of the deposited data

Results flagged for a closer look

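In both IL-4 libraries, 4 nephron genes with more than 3 counts in either of them had a higher CPM than in each of the other 6 libraries. Slc22a8 and Aqp2 were also seen there alone, with at most 3 counts. The library with more counts held 61 of Umod, 34 of Slc34a1, 6 of Slc22a6 and 2385 of Gatm, and Gatm also had 552 to 1308 counts elsewhere. Wnk1 moved in opposite directions with G-1 in M0 and M1 macrophages, and its log2 fold in M1 minus that in M0 was -2.10. Its log2 fold in M1 was -1.26 as counted and -0.32 after removal of the length trend, so the difference of -2.10 holds that trend. The difference between the states was not tested, since each state has 1 pair.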

How the results depend on the processing

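The count of 20 genes above all macrophage libraries ranged from 16 to 20 over its 8 alternatives, the one without the IL-4 libraries being chosen after seeing the data. The count of 23 present genes ranged from 19 to 27. TECs stood 0.55 (log2) above macrophages in the median gene by total counts, 0.15 by TMM and 0.22 by DESeq2 size factors, and the count above macrophages was 20 under each. The count of 1 gene past 2-fold between the TEC libraries, Calb1, became 0 at a minimum of 100 counts, 0 when the near bound of the interval had to pass 2-fold, 0 when a p under 0.05 from DESeq2 was asked for as well, 2 with no minimum and 5 at 1.5-fold. That p took both libraries as 1 group, holds no replicate spread and tests nothing about the condition. The 13 past 2-fold over the macrophage pairs became 8 at a minimum of 100 counts, 21 with none, 12 by total counts, without Anpep in M1, and 12 after removal of the length trend, without Wnk1 in M1. The shared G-1 effect, a test chosen after seeing the data, gave 0 genes with edgeR and 2 with DESeq2. Of 25 single folds, 6 left their counting interval when the length trend was removed, and the other alternatives moved none out of it. The test of the shared effect held the macrophage state as a block. For a single pair of libraries, no paired analysis was possible because each condition has 1 library. Genes under about 20 counts, Calb1 in TEC and Slc12a1 among them, are limited by counting error.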
